A study of Mus musculus with 6 samples.

Results

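RGS proteins (regulators of G protein signalling) shorten the signal of G protein-coupled receptors, and 8 genes of the family, Rgs1, Rgs2, Rgs3, Rgs10, Rgs14, Rgs16, Rgs18 and Rgs19, were followed here in sorted mouse CD4 T cells. Members were all probe sets to which the platform's annotation gave 1 of these symbols. That found 8 probe sets for 7 of the 8 genes, out of 23410 probe sets with a gene name and 35556 rows in all. Rgs3 had 2 probe sets, and Rgs10 was not analysed here because no probe set carried its symbol.

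The RNA came from CD4+ CD44+ T cells sorted from draining lymph nodes, with 2 arrays in each of 3 groups. Cxcr5+Bcl6+ cells carried the chemokine receptor Cxcr5 on the surface and the red fluorescence of the Bcl6 reporter, Cxcr5+Bcl6- cells carried the receptor without the fluorescence, and Cxcr5-Bcl6- cells carried neither. All groups came from Bcl6_RFP reporter males aged 8 to 10 weeks that had been given KLH/CFA, the protein antigen keyhole limpet haemocyanin with complete Freund's adjuvant. Bcl6- thus means cells without reporter fluorescence, not cells that lack the Bcl6 gene. The series design calls the arrays of a group biological replicates, and the sources used here do not say whether mice were pooled.

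A chemokine receptor such as Cxcr5 activates a heterotrimeric G protein, whose alpha subunit binds GTP and parts from the beta and gamma subunits. RGS proteins speed the hydrolysis of that GTP, so the subunits join again and the signal ends. In lymphocytes this sets how strongly and for how long a cell answers the chemokines that guide it into and out of B cell follicles. Rgs1, Rgs2, Rgs3, Rgs16 and Rgs18 belong to a subfamily of mostly small proteins with little beyond the RGS domain, whereas Rgs14 carries further domains that bind inactive alpha subunits and Ras-like proteins, and Rgs19 belongs to a separate subfamily that acts on the inhibitory alpha subunits.

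Values are log2 probe-set levels as the authors normalised them, and a difference of 1 is a 2-fold change. The 2 arrays of a group correlated at r = 0.9966 in Cxcr5+Bcl6+ cells, 0.9985 in Cxcr5+Bcl6- cells and 0.9970 in Cxcr5-Bcl6- cells across named probe sets, which are not independent replicates. Cxcr5 stood at 11.01 and 10.98 in Cxcr5+Bcl6+ cells, 9.98 and 9.91 in Cxcr5+Bcl6- cells and 7.61 and 7.34 in Cxcr5-Bcl6- cells, and Bcl6 at 11.45 and 11.55, 10.55 and 10.56, and 10.31 and 10.31 in the same order. Both sort genes were thus highest in the group sorted for both. Of the groups without the reporter signal, Cxcr5+Bcl6- cells were higher in Bcl6 by 0.25 (95% interval 0.06 to 0.44). This missed the threshold (limma, adjusted p = 0.103). It passed after quantile normalisation was run again (adjusted p = 0.0409) or with only probe sets above the median tested (0.0478). All 9 measured T cell markers stood above the range of 1223 olfactory, vomeronasal and trace-amine receptor probe sets, sensory receptors that serve here as a yardstick of low signal (95th percentile 7.75, 7.31 and 7.38 in the same order). The receptor probe sets were themselves higher in Cxcr5+Bcl6+ cells, with a median difference of 0.22 against Cxcr5-Bcl6- cells and 0.30 against Cxcr5+Bcl6- cells. Of the 1223, 423 and 573 passed as higher in these comparisons in turn (limma, adjusted p under 0.05), and 1 and 0 as lower. Rises of dim probe sets in Cxcr5+Bcl6+ cells are to be read beside these counts. In bulk RNA, fewer cells of a type and less RNA per cell cannot be told apart.

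Of the 8 member probe sets, 5 passed the test between Cxcr5+Bcl6+ and Cxcr5-Bcl6- cells (adjusted p under 0.05), 2 of them higher and 3 lower, where 35.3% of all tested probe sets passed (17.6% higher and 17.7% lower). Between Cxcr5+Bcl6- and Cxcr5-Bcl6- cells 3 of 8 passed, all lower, against 11.1% of all probe sets (5.22% higher and 5.93% lower). Between Cxcr5+Bcl6+ and Cxcr5+Bcl6- cells 4 of 8 passed, 2 higher and 2 lower, against 26.4% (13.4% higher and 13% lower). All member probe sets but that of Rgs18 lay above the median level, where calls were more common. When only the 11705 probe sets above the median were tested, 6649, 2677 and 4718 passed in these comparisons in turn. The members among them passed in 4, 3 and 4 cases. The median absolute difference of all 8 member probe sets was 0.46, 0.26 and 0.24 in the same order. That of all 23410 tested probe sets was 0.18, 0.10 and 0.16. The 3 comparisons share arrays. The counts of 3 and 4 rested on single arrays: the first was 1 without Cxcr5+Bcl6- replicate 2, and the second was 2 without either Cxcr5+Bcl6- array.

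**Figure D1:**
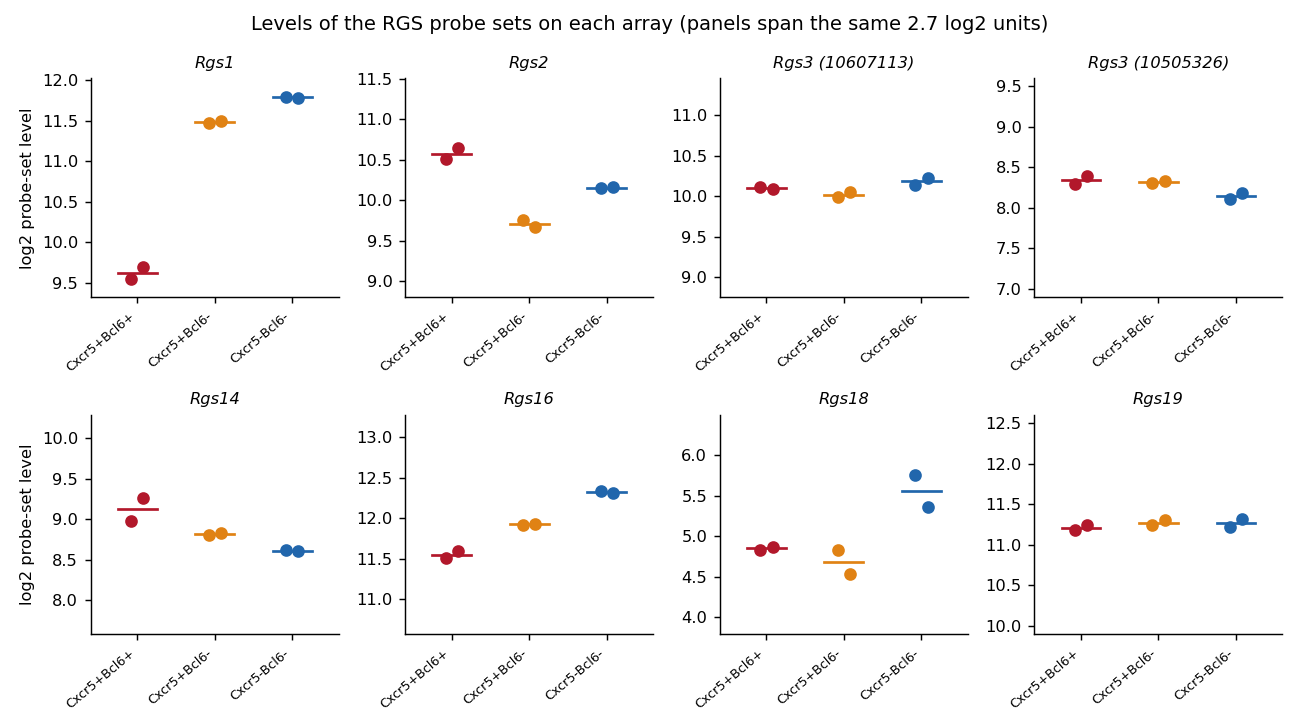
Log2 level of each RGS probe set on each array (y axis) in the 3 sorted groups (x axis), where a point is an array and a line the mean of 2 arrays. Rgs1 stands at 9.55 and 9.70 in Cxcr5+Bcl6+ cells and above 11 on the other 4 arrays, whereas the Rgs19 levels lie between 11.18 and 11.32 in all groups.

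Rgs1 (probe set 10358408, chromosome 1), a brake on chemokine receptor signalling in B and T cells, showed the widest span of group means of the members. Its level was 9.55 and 9.70 in Cxcr5+Bcl6+ cells, 11.47 and 11.50 in Cxcr5+Bcl6- cells and 11.80 and 11.78 in Cxcr5-Bcl6- cells. Both Cxcr5+Bcl6+ arrays lay below all others, and the remaining groups did not overlap either. Against Cxcr5-Bcl6- cells, Rgs1 was 4.49-fold lower in Cxcr5+Bcl6+ cells (log2 difference -2.17, SE 0.0907, adjusted p = 1.74e-08). Against Cxcr5+Bcl6- cells it was 3.63-fold lower (-1.86, adjusted p = 1.12e-07). Both calls passed under each of the 18 alternative settings tried, with log2 differences of -2.24 to -2.09 and -1.93 to -1.78.

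Between Cxcr5+Bcl6- and Cxcr5-Bcl6- cells Rgs1 differed by -0.31 (95% interval -0.51 to -0.11), which missed the threshold at an adjusted p of 0.0515. Its adjusted p ran from 0.0209 to 0.323 over the alternatives, and it passed under 8 of 18, in 1 of them through a looser threshold of 0.1. The order of Rgs1 levels was therefore Cxcr5-Bcl6-, Cxcr5+Bcl6- and Cxcr5+Bcl6+ from high to low, with the upper pair of groups not separated by the test. Rgs1 is known from B cells too, whose markers differed between the sorts and are given with those of other cells at the end.

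Among 18614 genes with a curated symbol, the profile nearest to that of Rgs1 over the 6 arrays was that of Phf11c, a PHD finger gene. Likeness was measured as the root mean square difference of log2 levels after each profile was centred on its own mean, and was 0.0526 for Phf11c, 0.0669 for Lta, which encodes lymphotoxin alpha, and 0.0845 for Dennd5a, which encodes a regulator of Rab GTPases. These 3 genes differed by -2.13, -2.14 and -2.32 in Cxcr5+Bcl6+ against Cxcr5-Bcl6- cells. Between the Cxcr5+ groups they differed by -1.83, -1.95 and -2.02. These values describe genes picked for their likeness on the same arrays and are no separate evidence.

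Rgs16 (probe set 10350733, chromosome 1), which acts on inhibitory and Gq-type alpha subunits and is induced in activated T cells, changed in all 3 comparisons. Its level was 11.51 and 11.59 in Cxcr5+Bcl6+ cells, 11.92 and 11.93 in Cxcr5+Bcl6- cells and 12.34 and 12.31 in Cxcr5-Bcl6- cells. The groups formed steps with no overlap. Rgs16 fell by 0.77 on the log2 scale in Cxcr5+Bcl6+ against Cxcr5-Bcl6- cells (SE 0.0871, adjusted p = 3.03e-05), which is 1.71-fold. Against Cxcr5-Bcl6- cells, Cxcr5+Bcl6- cells were lower by -0.40 (adjusted p = 0.0118). Against Cxcr5+Bcl6- cells, Cxcr5+Bcl6+ cells were lower by -0.37 (adjusted p = 0.00825). Whether these steps differ in size was not tested.

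The sizes of the smaller steps of Rgs16 held when arrays were left out, but their calls did not. Without Cxcr5+Bcl6- replicate 1 or 2 the step between Cxcr5+Bcl6- and Cxcr5-Bcl6- cells was -0.40 both times (adjusted p = 0.109 and 0.104), and the step between the Cxcr5+ groups was -0.38 and -0.37 (adjusted p = 0.0729 and 0.0723). With all rows of the table tested, the step between Cxcr5+Bcl6- and Cxcr5-Bcl6- cells also missed the threshold (adjusted p = 0.0514).

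Rgs2 (probe set 10358389, chromosome 1) encodes a regulator that prefers the Gq alpha subunit, and it did not follow Rgs1 and Rgs16. Its level was 10.51 and 10.64 in Cxcr5+Bcl6+ cells, 9.75 and 9.67 in Cxcr5+Bcl6- cells and 10.15 and 10.16 in Cxcr5-Bcl6- cells. Cxcr5+Bcl6+ cells were highest and Cxcr5+Bcl6- cells lowest, and no groups overlapped. Against Cxcr5+Bcl6- cells, Rgs2 rose 1.82-fold in Cxcr5+Bcl6+ cells (log2 difference 0.86, SE 0.0914, adjusted p = 3.83e-05). Against Cxcr5-Bcl6- cells it rose there by 0.42 (adjusted p = 0.00368). In Cxcr5+Bcl6- against Cxcr5-Bcl6- cells it fell by 0.45 (adjusted p = 0.00823), a call that ended without Cxcr5+Bcl6- replicate 2 (difference -0.40, adjusted p = 0.105).

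Rgs16 and Rgs2 moved in opposite directions in Cxcr5+Bcl6+ cells, and the 250 bases before the start of each gene are shown so that the regions can be set side by side. They come from RefSeq (GRCm38.p6), whose promoter table held 5 of the 8 genes. The Rgs16 region is chr1:153740103-153740352 on the plus strand and the Rgs2 region chr1:144004150-144004399 on the minus strand, each written 5′ to 3′. Capitals mark matches on either strand to CCGCCC (GC box, bound by Sp factors), CCAAT (bound by NF-Y) and CGTCA (the short CRE motif, bound by CREB and ATF proteins).
Rgs16: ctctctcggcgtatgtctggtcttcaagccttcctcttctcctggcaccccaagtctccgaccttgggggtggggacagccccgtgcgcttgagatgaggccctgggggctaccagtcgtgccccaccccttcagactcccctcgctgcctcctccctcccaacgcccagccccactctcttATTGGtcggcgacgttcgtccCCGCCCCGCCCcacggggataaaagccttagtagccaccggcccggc
Rgs2: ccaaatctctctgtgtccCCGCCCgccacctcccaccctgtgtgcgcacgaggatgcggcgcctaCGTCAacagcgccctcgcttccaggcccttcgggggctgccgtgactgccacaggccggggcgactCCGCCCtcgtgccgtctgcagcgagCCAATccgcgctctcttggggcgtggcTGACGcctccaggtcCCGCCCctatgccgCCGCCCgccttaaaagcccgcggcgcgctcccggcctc
The Rgs2 region held 4 GC boxes, 1 CCAAT box and 2 short CRE motifs, and the Rgs16 region held 2 GC boxes that share 1 base, 1 CCAAT box and 0 short CRE motifs. Of 32851 promoter windows of the same length, 32.7% held a GC box, 33.8% a CCAAT box and 17.8% a short CRE motif. Neither region held the BCL6 motif TTCCTNGAA, which 1.31% of the windows held. These are matches of letters and not binding sites.

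Rgs14 (probe set 10405432, chromosome 13), a scaffold that binds inactive inhibitory alpha subunits as well as Ras and Rap proteins, was higher in Cxcr5+Bcl6+ cells. Its level was 8.98 and 9.26 in Cxcr5+Bcl6+ cells, 8.81 and 8.83 in Cxcr5+Bcl6- cells and 8.62 and 8.61 in Cxcr5-Bcl6- cells. The groups did not overlap, and the Cxcr5+Bcl6+ arrays lay furthest apart. Rgs14 rose by 0.51 in Cxcr5+Bcl6+ against Cxcr5-Bcl6- cells (SE 0.104, adjusted p = 0.00224), a 1.43-fold difference. The 0.31 between the Cxcr5+ groups passed narrowly (adjusted p = 0.0489). It did not pass after centring the arrays on their medians (0.23, adjusted p = 0.149) or without Cxcr5+Bcl6+ replicate 2 (0.17, adjusted p = 0.243), Cxcr5+Bcl6- replicate 1 (0.29, adjusted p = 0.211) or Cxcr5+Bcl6- replicate 2 (0.32, adjusted p = 0.16). With the replicate number as a block it missed as well (adjusted p = 0.0545). Between Cxcr5+Bcl6- and Cxcr5-Bcl6- cells the difference of 0.21 did not pass (95% interval -0.02 to 0.43, adjusted p = 0.292).

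Rgs18 (probe set 10358421, chromosome 1), known from platelets and their precursors, stood in the range of the receptor probe sets in all 3 groups. Its level was 4.83 and 4.87 in Cxcr5+Bcl6+ cells, 4.83 and 4.54 in Cxcr5+Bcl6- cells and 5.75 and 5.37 in Cxcr5-Bcl6- cells. Only the Cxcr5-Bcl6- arrays were above 5, and they lay further apart than those of the other groups. Rgs18 was lower in Cxcr5+Bcl6+ cells by -0.71 (SE 0.132, adjusted p = 0.00129) and in Cxcr5+Bcl6- cells by -0.88 (adjusted p = 0.00129), each against Cxcr5-Bcl6- cells. The receptor probe sets differed by 0.22 and -0.07 at the median in these comparisons (5th to 95th percentile -0.04 to 0.54 and -0.25 to 0.11). The Cxcr5+ groups differed by 0.17 (95% interval -0.12 to 0.46, adjusted p = 0.389).

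Rgs19 (probe set 10490736, chromosome 2), which acts on inhibitory alpha subunits and binds the adaptor encoded by Gipc1, passed in 0 of 3 comparisons (limma, and 0 of 3 at an unadjusted p under 0.05, the lowest being 0.495). Its level was 11.18 and 11.24 in Cxcr5+Bcl6+ cells, 11.24 and 11.30 in Cxcr5+Bcl6- cells and 11.21 and 11.32 in Cxcr5-Bcl6- cells. The Cxcr5-Bcl6- arrays overlapped both other groups. The difference between Cxcr5+Bcl6+ and Cxcr5-Bcl6- cells was -0.06 (95% interval -0.25 to 0.14).

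Rgs3 (chromosome 4), whose product acts on inhibitory and Gq-type alpha subunits, was read by 2 probe sets that did not share a pattern. Probe set 10607113, annotated with 1 curated RefSeq transcript, stood at 10.11 and 10.09 in Cxcr5+Bcl6+ cells, 9.98 and 10.05 in Cxcr5+Bcl6- cells and 10.14 and 10.22 in Cxcr5-Bcl6- cells. Probe set 10505326, annotated with that transcript and 2 others, stood at 8.30 and 8.39, 8.31 and 8.34, and 8.11 and 8.19 in the same groups. The first was lowest in Cxcr5+Bcl6- cells and the second in Cxcr5-Bcl6- cells. The differences between Cxcr5+Bcl6+ and Cxcr5-Bcl6- cells were -0.08 (95% interval -0.27 to 0.11, adjusted p = 0.535) and 0.20 (95% interval 0.0045 to 0.39, adjusted p = 0.108). Neither probe set passed in any comparison, and their levels cannot be set against each other.

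**Figure D2:**
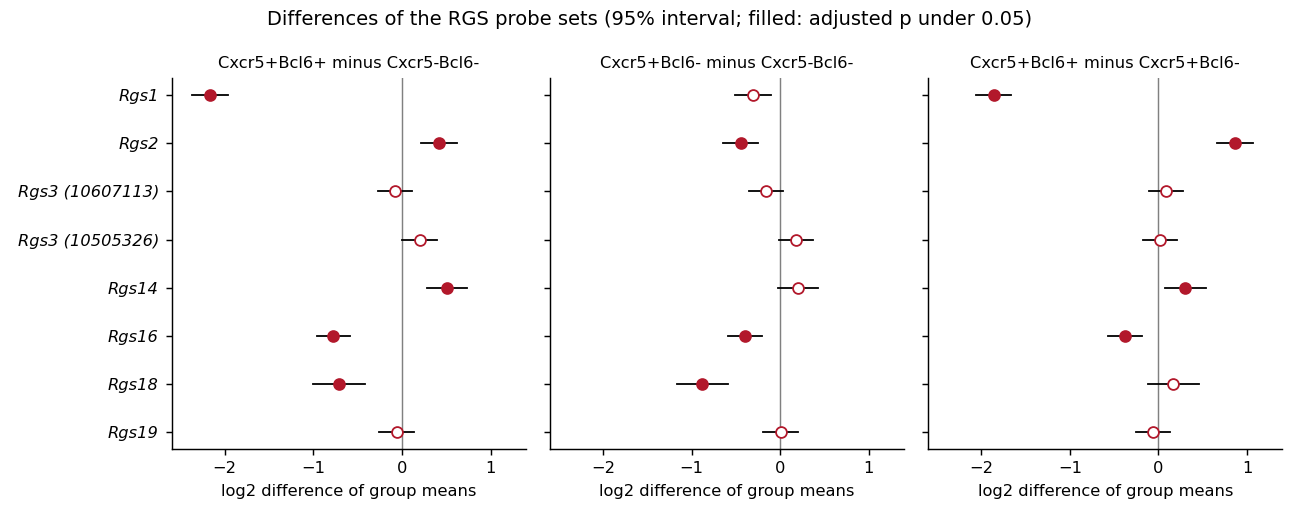
Log2 difference of group means (x axis) of each RGS probe set (y axis) in the 3 comparisons, where points are estimates, bars are 95% intervals and filled points have an adjusted p under 0.05. Rgs1 stands at -2.17 and -1.86 in the comparisons of Cxcr5+Bcl6+ cells, and Rgs2 changes sign between -0.45 and 0.86.

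Rgs2, Rgs13, Rgs1, Rgs21 and Rgs18 follow each other on mouse chromosome 1 with no other protein-coding gene listed between them in the RefSeq annotation. Between Cxcr5+Bcl6+ and Cxcr5-Bcl6- cells Rgs2 rose by 0.42, Rgs13 fell by 0.40 (adjusted p = 0.00898), Rgs1 fell by 2.17 and Rgs18 fell by 0.71, while Rgs21 differed by -0.05 (adjusted p = 0.721). Rgs13, Rgs18 and Rgs21 stood in the receptor range in all 3 groups, so of these neighbours only Rgs1 and Rgs2 were measured above it. Rgs13, a regulator known from germinal centre B cells and mast cells, also fell in Cxcr5+Bcl6- against Cxcr5-Bcl6- cells (-0.62, adjusted p = 0.00208). Its level, 5.07 and 5.12 in Cxcr5+Bcl6+ cells, 4.76 and 4.97 in Cxcr5+Bcl6- cells and 5.42 and 5.56 in Cxcr5-Bcl6- cells, was highest in that last group, and its first call ended without Cxcr5+Bcl6+ replicate 1 (adjusted p = 0.0559).

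**Figure D3:**
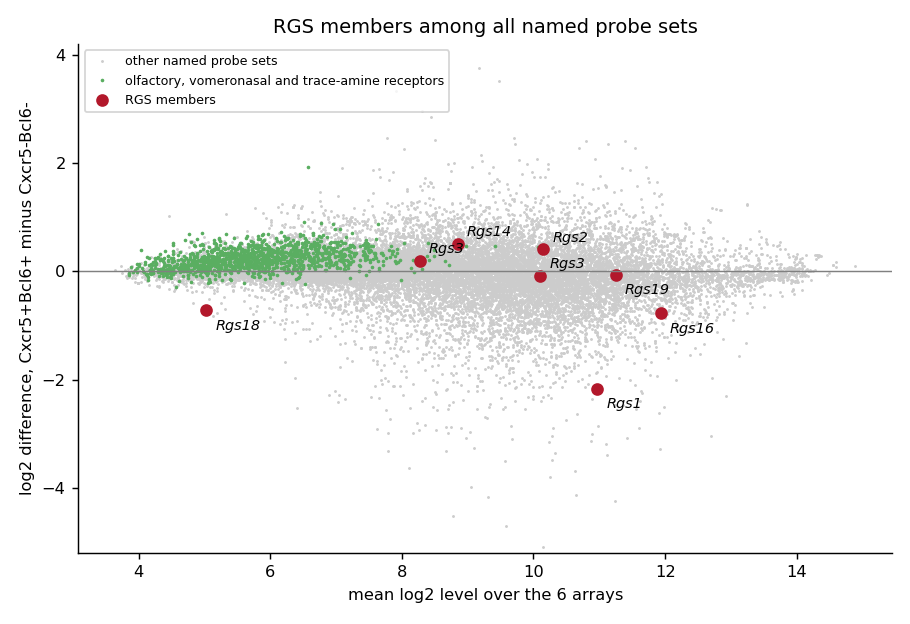
Log2 difference between Cxcr5+Bcl6+ and Cxcr5-Bcl6- cells (y axis) against the mean log2 level over 6 arrays (x axis), with RGS members in red, olfactory, vomeronasal and trace-amine receptor probe sets in green and all other named probe sets in grey. Rgs18 lies among the receptor levels at -0.71, below their 5th percentile of -0.04, and Rgs1 at -2.17 lies far below most probe sets of its level.

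Of all tested probe sets, 35.3% passed between Cxcr5+Bcl6+ and Cxcr5-Bcl6- cells (17.6% higher and 17.7% lower). Between Cxcr5+Bcl6- and Cxcr5-Bcl6- cells 11.1% passed, and between the Cxcr5+ groups 26.4%. The counts of the gene lists that follow are to be read beside these shares. The 13 other measured RGS genes lay mostly at low signal, with 9 of them in the receptor range in all 3 groups. Between Cxcr5+Bcl6+ and Cxcr5-Bcl6- cells 0 rose and 2 fell (limma, with 2 higher and 2 lower at an unadjusted p under 0.05), namely Rgs13 and Rgs9 (-0.33, adjusted p = 0.0168), which is a regulator known from retina and striatum. The Rgs9 call ended without Cxcr5+Bcl6+ replicate 2 (adjusted p = 0.0926) or Cxcr5-Bcl6- replicate 2 (adjusted p = 0.0921). Between Cxcr5+Bcl6- and Cxcr5-Bcl6- cells only Rgs13 passed. Between the Cxcr5+ groups Rgs17 (0.30, adjusted p = 0.0369) and Rgs22 (0.29, adjusted p = 0.0378) rose, beside a median of 0.30 for the receptor probe sets, and neither passed after quantile normalisation (adjusted p = 0.191 and 0.245), after centring (0.104 and 0.13) or without any 1 of the 4 arrays compared (lowest adjusted p 0.0728 and 0.0732). The Rgs22 call also ended with the replicate number as a block (adjusted p = 0.0532).

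Of 12 measured alpha subunits, on which RGS proteins act, 3 rose and 3 fell between Cxcr5+Bcl6+ and Cxcr5-Bcl6- cells (median 0.05), where 17.6% of all tested probe sets rose and 17.7% fell (median 0.04). Gnai2, which encodes the inhibitory alpha subunit that chemokine receptors use in lymphocytes, was 12.87 and 12.99 in Cxcr5+Bcl6+ cells, 12.68 and 12.74 in Cxcr5+Bcl6- cells and 12.31 and 12.32 in Cxcr5-Bcl6- cells. It rose by 0.61 in Cxcr5+Bcl6+ against Cxcr5-Bcl6- cells (adjusted p = 0.000207), as did Gna14 (0.50), a Gq-type subunit, and Gna13 (0.38). Gna15, a Gq-type subunit of blood cells, fell by 0.81 (adjusted p = 1.92e-05), and the Gq-type subunits Gna11 and Gnaq fell too. Gna14 stood in the receptor range in all groups, and Gna15 in Cxcr5+Bcl6+ cells. The Gna14 difference of 0.50 lay within the 5th to 95th percentile of the receptor differences in that comparison (-0.04 to 0.54). In the other comparisons 1 alpha subunit rose and 1 fell each, Gnai2 and Gna15 in Cxcr5+Bcl6- against Cxcr5-Bcl6- cells, and Gna14 and Gna15 between the Cxcr5+ groups. Of these smaller calls, those of Gnai2 (adjusted p = 0.0826 and 0.161) and Gna15 (0.203 and 0.241) in Cxcr5+Bcl6- against Cxcr5-Bcl6- cells ended without Cxcr5+Bcl6- replicate 1 or 2, and that of Gna15 also without either Cxcr5-Bcl6- array (0.057 and 0.109). That of Gna14 ended without Cxcr5+Bcl6+ replicate 2 (0.0913) or Cxcr5+Bcl6- replicate 1 (0.0821).

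Of 14 beta and gamma subunits, 3 rose and 3 fell between Cxcr5+Bcl6+ and Cxcr5-Bcl6- cells (median 0.10), where 35.3% of all tested probe sets passed (median 0.04). The gamma subunit Gng2 was higher by 1.31 and Gng12 lower by -1.39 (adjusted p = 5.36e-07 and 5.75e-07), the beta subunit Gnb2 (0.53) and the gamma subunit Gng3 (0.47) also rose, and the beta subunits Gnb4 and Gnb5 fell. Gng3 stood in the receptor range in all groups, and its 0.47 lay within the 5th to 95th percentile of the receptor differences (-0.04 to 0.54). In the remaining comparisons 1 rose and 1 fell in Cxcr5+Bcl6- against Cxcr5-Bcl6- cells, while Gnb2, Gng2 and Gng4 rose and Gng12 fell between the Cxcr5+ groups. Gng2 and Gng12 passed in all 3 comparisons with the same direction. The Gnb2 call between the Cxcr5+ groups ended without Cxcr5+Bcl6+ replicate 1 (adjusted p = 0.0707) or 2 (0.137) or Cxcr5+Bcl6- replicate 1 (0.198).

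Receptor kinases and arrestins, which switch off the receptor itself, passed in 4 of 6 measured cases between Cxcr5+Bcl6+ and Cxcr5-Bcl6- cells (median 0.21), where 35.3% of all tested probe sets passed (median 0.04). Both arrestins rose, Arrb2 by 0.90 and Arrb1 by 0.74 (adjusted p = 4.6e-05 and 5.39e-05), and the kinases Grk3 (-0.88, adjusted p = 3.1e-05) and Grk5 (-0.27, adjusted p = 0.0307) fell. Grk3 stood in the receptor range in both Cxcr5+ groups. The Grk5 call ended when any 1 of the 6 arrays was left out (adjusted p 0.0566 to 0.093). Arrb1 rose and Grk3 fell in Cxcr5+Bcl6- against Cxcr5-Bcl6- cells, and both arrestins rose and Grk5 fell between the Cxcr5+ groups. That Grk5 call ended when any 1 of the 4 arrays compared was left out (adjusted p 0.0621 to 0.242). The Arrb1 calls in these 2 comparisons ended without Cxcr5+Bcl6- replicate 1 (0.108 and 0.114) or 2 (0.0902 and 0.128), and the second also without Cxcr5+Bcl6+ replicate 2 (0.0881).

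Between Cxcr5+Bcl6+ and Cxcr5-Bcl6- cells 17.6% of all tested probe sets rose and 17.7% fell (median 0.04). The list of 8 other regulators of alpha subunits, which also held the gene Gipc1 of the Rgs19-binding adaptor, had a median of 0.11 in that comparison. Of these 8 genes, 2 rose and 0 fell (limma, likewise 2 and 0 at an unadjusted p under 0.05). They were Gpsm3 (0.95, adjusted p = 1.66e-05), which binds inactive inhibitory alpha subunits, and Gipc1 (0.34, adjusted p = 0.0136), whose call ended without Cxcr5+Bcl6+ replicate 2 (adjusted p = 0.0641) or Cxcr5-Bcl6- replicate 1 (adjusted p = 0.0532). In Cxcr5+Bcl6- against Cxcr5-Bcl6- cells Gpsm3 and Gpsm2 (0.48, adjusted p = 0.00551), a relative that also orients the spindle, rose. There the Gpsm3 call ended without either Cxcr5+Bcl6- array (adjusted p = 0.0685 and 0.0687) or Cxcr5-Bcl6- replicate 1 (0.0699). Between the Cxcr5+ groups Gpsm3 rose and Gpsm2 fell, a Gpsm2 call that ended without Cxcr5+Bcl6+ replicate 1 (0.191) or either Cxcr5+Bcl6- array (0.219 and 0.189) and with the replicate block (0.0552). Pcp2 did not pass in any comparison (0.07 between Cxcr5+Bcl6+ and Cxcr5-Bcl6- cells, adjusted p = 0.643).

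Among 23 measured receptors, most of which guide migration, 7 rose and 10 fell between Cxcr5+Bcl6+ and Cxcr5-Bcl6- cells. Their median was -0.10, against 0.04 for all tested probe sets, of which 35.3% passed. Cxcr5 among the rises was used for the sort. The list also held the prostaglandin receptors Ptger2 and Ptger4 and the adenosine receptor Adora2a. Of these, Ptger4 was among the falls in both comparisons of Cxcr5+Bcl6+ cells. Cxcr4, the receptor for Cxcl12, rose by 2.27 (adjusted p = 1.18e-08), whereas Ccr8 fell by 3.08 (adjusted p = 6.16e-09) and Ccr9, a receptor for gut homing, fell as well (adjusted p = 4.35e-09). Ccr9, also a marker of plasmacytoid dendritic cells, stood at 6.63 and 6.35 in Cxcr5+Bcl6+ cells, 7.44 and 7.38 in Cxcr5+Bcl6- cells and 9.48 and 9.49 in Cxcr5-Bcl6- cells. In Cxcr5+Bcl6- against Cxcr5-Bcl6- cells 7 rose and Ccr7, Ccr9 and Gpr183 fell, and between the Cxcr5+ groups 7 rose and 9 fell.

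Of 16 effectors downstream of G proteins, 6 rose and 1 fell between Cxcr5+Bcl6+ and Cxcr5-Bcl6- cells (median 0.17), where 17.6% of all tested probe sets rose and 17.7% fell (median 0.04). The phospholipase gene Plcb4 rose by 1.43 (adjusted p = 4.74e-07), the Rac activator gene Prex1 by 1.03 (adjusted p = 2.83e-05) and the adenylyl cyclase gene Adcy7 by 0.99 (adjusted p = 5.89e-05). Pik3r5, which encodes a regulatory subunit of the phosphoinositide 3-kinase that beta and gamma subunits activate, fell by 0.98 (adjusted p = 1.49e-05). Adcy7 and Plcb4 rose and Adcy6 fell in Cxcr5+Bcl6- against Cxcr5-Bcl6- cells, and 7 effectors rose and Pik3r5 fell between the Cxcr5+ groups. The Adcy7 calls in these 2 comparisons ended without Cxcr5+Bcl6- replicate 2 (adjusted p = 0.072) or Cxcr5-Bcl6- replicate 1 (0.0791) in the first, and without Cxcr5+Bcl6+ replicate 2 (0.146) or Cxcr5+Bcl6- replicate 1 (0.108) in the second.

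**Figure D4:**
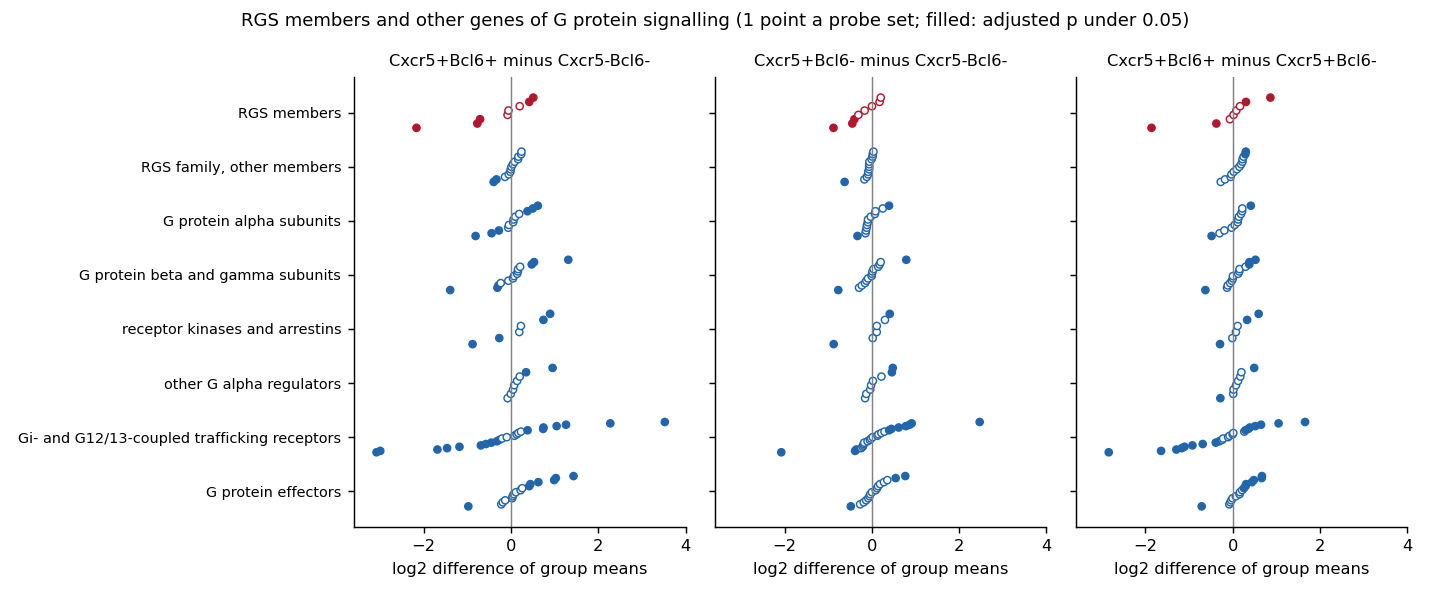
Log2 difference of group means (x axis) of RGS members (red) and 7 other lists of G protein signalling genes (blue, 1 point a probe set) in the 3 comparisons, with filled points for an adjusted p under 0.05. In the first panel the migration receptor Ccr8 stands at -3.08 and Rgs1 at -2.17. The next lowest RGS member there, Rgs16, stands at -0.77.

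Markers of other cells differed between the sorts beside the RGS genes, and their part in the RGS results was not tested. No marker was at 0, since arrays give a signal for every probe set, so those in the receptor range are counted instead. The marker counts stand beside the 35.3% of all tested probe sets that passed between Cxcr5+Bcl6+ and Cxcr5-Bcl6- cells. Between Cxcr5+Bcl6- and Cxcr5-Bcl6- cells 11.1% passed, and between the Cxcr5+ groups 26.4%. Plasmacytoid dendritic cell markers fell in 7 of 7 cases when either Cxcr5+ group was set against Cxcr5-Bcl6- cells, and between the Cxcr5+ groups 6 fell and Spib rose. Their summed linear signal was 1786 to 1867 in Cxcr5+Bcl6+ cells, 2569 to 2595 in Cxcr5+Bcl6- cells and 7556 to 8046 in Cxcr5-Bcl6- cells. Siglech, Pld4 and Ccr9 were in the receptor range in Cxcr5+Bcl6+ cells. Of 12 myeloid and conventional dendritic cell markers, 7 fell and Lyz2 rose in each comparison with Cxcr5-Bcl6- cells, and 5 fell between the Cxcr5+ groups, with sums of 2284 to 2356, 2798 to 2867 and 8670 to 8765 in the same order of groups. Of these 12, 9 were in the receptor range in Cxcr5+Bcl6+ cells, 4 in Cxcr5+Bcl6- cells and 3 in Cxcr5-Bcl6- cells, with Csf1r, Itgam and Cd14 there in all groups. By group mean, Rgs1, Rgs16, Rgs18 and the Rgs3 probe set 10607113 were highest in Cxcr5-Bcl6- cells, the group with the highest sums of both lists. The sums of the CD8 T cell and the germinal centre B and plasma cell lists were highest there too. The members of the latter list were mixed in Cxcr5+Bcl6+ against Cxcr5-Bcl6- cells, with 2 higher and 2 lower. Their median difference there was 0.24, against 0.04 for all tested probe sets. Rgs2, Rgs14 and the Rgs3 probe set 10505326 were highest in Cxcr5+Bcl6+ cells, and Rgs19 in Cxcr5+Bcl6- cells. Not all of these ranks were separated by the test. Neither Rgs3 probe set nor Rgs19 passed in any comparison, and Rgs1 did not pass between Cxcr5-Bcl6- and Cxcr5+Bcl6- cells (limma, adjusted p = 0.0515).

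Of 8 measured B cell markers, 7 rose and 0 fell in Cxcr5+Bcl6+ against Cxcr5-Bcl6- cells. In Cxcr5+Bcl6- against Cxcr5-Bcl6- cells 6 rose and 0 fell (limma, with 7 and 0 in each comparison at an unadjusted p under 0.05). Of all tested probe sets, 17.6% rose in the first of these comparisons and 5.22% in the second. Between the Cxcr5+ groups Cd79a, Cd79b, Ms4a1 and Pax5 rose. The sum of the list was 3219 to 3330 in Cxcr5+Bcl6+ cells, 2148 to 2255 in Cxcr5+Bcl6- cells and 1219 to 1231 in Cxcr5-Bcl6- cells, the reverse of the order of Rgs1 and Rgs16. In the receptor range were 4 of these 8 markers in Cxcr5+Bcl6+ cells, 2 in Cxcr5+Bcl6- cells and 6 in Cxcr5-Bcl6- cells. Cd79a and Cr2 were there in all groups. Of 5 measured platelet and erythroid markers, 0 passed in any of the 3 comparisons (limma, with 1 at an unadjusted p under 0.05, between the Cxcr5+ groups), and the list summed to 769 to 862 in Cxcr5+Bcl6+ cells, 728 to 770 in Cxcr5+Bcl6- cells and 745 to 786 in Cxcr5-Bcl6- cells. The platelet genes Pf4 and Ppbp were in the receptor range in all groups.

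Of 7 germinal centre B and plasma cell markers, Mybl1 and S1pr2 rose and Jchain and Xbp1 fell in Cxcr5+Bcl6+ against Cxcr5-Bcl6- cells. The sums were 5485 to 6030 in Cxcr5+Bcl6+ cells, 7748 to 8189 in Cxcr5+Bcl6- cells and 8524 to 8722 in Cxcr5-Bcl6- cells. In the receptor range were 4, 1 and 3 of the 7 in the same order of groups, with Mybl1 there in both groups compared. Of the CD8 T cell markers, Cd8a was in that range in Cxcr5+Bcl6+ cells only. All 5 NK cell markers were in it in Cxcr5+Bcl6+ cells, and Klrb1c, Klre1 and Ncr1 in the other groups too. Between Cxcr5+Bcl6+ and Cxcr5-Bcl6- cells the 3 CD8 T cell markers all fell (sums 822 to 859, 1663 to 1736 and 2361 to 2507). Of the NK cell markers Klrb1c rose and Eomes and Nkg7 fell (570 to 615, 1805 to 1904 and 1674 to 1720). Of the 9 T cell markers Cd3d, Cd3g, Cd4 and Cd28 rose and Cd2, Cd5 and Cd44 fell, with sums of 56180 to 58121 in Cxcr5+Bcl6+ cells, 53934 to 54338 in Cxcr5+Bcl6- cells and 51163 to 51717 in Cxcr5-Bcl6- cells.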

How the data were processed

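Gene expression was measured in 6 mouse samples with 1 Affymetrix whole-transcript array each. The deposited values are probe-set levels that the authors normalised between arrays, and the log2 scale was read from their range. Per the submitters' processing notes GCOS 1.1, RMA and Affymetrix Expression Console were used, with settings not given in the sources used here. Precision is limited by the number of arrays.

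Symbols came from the platform's annotation (21789 probe sets with 1 symbol, 1621 with several, 12146 unnamed here) and were updated through Entrez identifiers for 21698. The 23410 named probe sets were fitted with limma 3.58.1 in R 4.3.3 (group means over all 6 arrays, eBayes defaults, two-sided moderated test), with Benjamini-Hochberg adjustment over all of them and a threshold of 0.05. SE and 95% intervals come from that fit. The fit was also run on simulated data with independent noise and 200 changed probe sets, all raised in 1 group. That setting is simpler than these data and does not vouch for the calls given here. Lists used the probe set of each gene with the highest mean.

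The members, the 7 pathway lists and the 8 marker lists were chosen with earlier results of these data known. Named were every member, up to 4 genes per pathway list with the smallest p, other RGS genes that passed, and the 3 nearest profiles for members whose group means spanned at least 1. Rgs21, and genes named to spell out a small count, were named after their values were seen. Of the listed genes, those with several symbols or no symbol match were not analysed here. No scan date or other batch was given, and no detection calls were used.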

Additional observations from a re-analysis of the deposited data

How the results depend on the processing

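The counts of calls over all probe sets and over members, the members, the sort genes, the 3 nearest profiles and the up to 4 genes chosen per pathway list were recomputed under 18 alternatives. The marker lists, and genes named only to spell out a small count, were not. Leaving out an array of the group not compared gave the same result as fitting only the 4 arrays compared, so the 18 alternatives overlap. Of the member results under these settings, 388 kept direction and side of the threshold, 19 lost their call, 8 gained one, 8 uncalled differences near 0 changed sign, and no called member changed sign. A floor of 1.5-fold on the change lowered the counts of all calls to 3470 for Cxcr5+Bcl6+ against Cxcr5-Bcl6- cells (8255 without it), 822 for Cxcr5+Bcl6- against Cxcr5-Bcl6- cells (2610 without it) and 1952 for Cxcr5+Bcl6+ against Cxcr5+Bcl6- cells (6185 without it). It lowered the member counts to 3, 1 and 2, since the changes of Rgs2, Rgs14 and Rgs16 that it removed are smaller than that floor. Testing all rows gave 1579 calls for Cxcr5+Bcl6- against Cxcr5-Bcl6- cells. Leaving out each array in turn gave 6780 to 8370, 1317 to 2624 and 3617 to 6987 calls in these comparisons, with 5, 1 to 4 and 2 to 4 member calls. The lowest counts came without Cxcr5+Bcl6- replicate 1 (1317 and 3617) or replicate 2 (1401 and 3820). Rises were 50.8% of calls between the Cxcr5+ groups and 35.0% after centring. Rgs18 was removed by either filter on dim probe sets, and the lower Rgs3 probe set by keeping 1 per gene, so these have no value there.

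The replicate number as a block gave 7942, 2411 and 5862 calls and 5, 3 and 3 member calls. Same-numbered arrays deviated together at r = -0.23, 0.26 and -0.05 across probe sets in these comparisons, and no label pairs them. Among the genes recomputed, the block ended the calls of Rgs14 (adjusted p = 0.0545), Rgs22 (0.0532) and Gpsm2 (0.0552) between the Cxcr5+ groups. It gave a call to Gng3 between the Cxcr5+ groups and to Prex1 in Cxcr5+Bcl6- against Cxcr5-Bcl6- cells, and changed no other call.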
